A study of Bos taurus with 57 samples.

Results

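Described here are 6 genes of Holstein-Friesian bull calves, out of 24616 genes listed in each count file. They are ENSBTAG00000039462, ENSBTAG00000021181, ENSBTAG00000016619, ENSBTAG00000023814, ENSBTAG00000012443 and ENSBTAG00000009983. They were chosen by their measured values: each was more than 1 lower on the log2 scale in the anterior pituitary of calves on the low plane of nutrition than in calves on the high plane, with a weak or opposite difference in the arcuate nucleus. Their diet differences in those 2 tissues are therefore given as a description, with no test. Levels of the anterior pituitary or the arcuate nucleus against another tissue hold the same values, so they too are described without a test. The diet difference in the testes was not used in the choice, and it is tested. Variation among calves of 1 diet is tested as well. In the anterior pituitary and arcuate nucleus it comes from libraries used in the choice, so pairs that pass there carry no further weight. The files list Ensembl identifiers without names, and the RefSeq table used here paired none of them with a symbol, so the genes are given by identifier. What each encodes, and its sequence, are not reported here.

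The arcuate nucleus, anterior pituitary and testes form one hormonal axis. Neurons of the arcuate nucleus sense metabolic state and act on the release of GnRH. GnRH acts on the gonadotrophs of the anterior pituitary, which secrete LH and FSH, and these hormones drive the Leydig and Sertoli cells of the testes. The anterior pituitary also holds the cells that make growth hormone, prolactin, ACTH and TSH, and in young animals its cells still divide.

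All calves were males of 1 breed, killed at 126 days of age. The groups differed in plane of nutrition, for which the sample labels give growth of 1.08 kg per day (high) and 0.5 kg per day (low), and the design text a target of 1.2 and 0.5 kg per day. The anterior pituitary was represented by 9 high plane and 10 low plane libraries, the arcuate nucleus by 10 and 10, and the testes by 10 and 8. Each library was made from a whole piece of tissue, and the study's methods state that the same calves gave all 3 tissues, but the labels tie no library to a calf. The identity of each tissue could not be checked against marker genes, which the files do not name. The high plane testes library labelled A48, whose own header reads B48, had a median r across genes of 0.988 with the other testes libraries and of 0.897 with the anterior pituitary libraries.

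Counted reads per library ran from 898979 (arcuate nucleus library C22) to 32009433. A set of 13 libraries stood apart from the other 44 in all 3 tissues. They were found by a library score, which averages log2 CPM over 200 genes that follow the main axis of variation of the other 2 tissues. CPM is the count divided by the TMM-scaled library size in units of 1e+06 reads. The score lay between -1.68 and 1.58 in these 13 and between 3.41 and 5.10 in the rest. None of the 6 genes is among the 200. Several of them were shallow for their tissue. In the testes 4 of the 6 held fewer reads than every other library (8586953 at the lowest, against 14472180), and in the anterior pituitary 2 of the 5 did (6895844 at the lowest, against 10494695). Those of the anterior pituitary are A57, A51 and A18 (high plane) and A10 and A47 (low plane), those of the arcuate nucleus are C6 and C33 (low plane), and those of the testes are B42 (high plane) and B21, B2, B15, B26 and B20 (low plane). In the testes they make up 5 of 8 low plane libraries and 1 of 10 high plane libraries, so results there are given with and without them.

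In the anterior pituitary all 6 genes were lower on the low plane, by 2.07 to 4.54-fold. ENSBTAG00000039462 had the widest difference. It was at 2.06 to 11.5 CPM in high plane libraries (median 3.59, n = 9) and at 0.291 to 2.29 CPM in low plane libraries (median 0.844, n = 10), with a log2 fold change of -2.18 ± 0.387 (SE). A single low plane library, A27, lay above the lowest high plane library, A29. ENSBTAG00000012443 was at 1.80 to 7.24 CPM in high plane libraries (median 2.92) and at 0.630 to 2.07 CPM in low plane libraries (median 0.783), with a log2 fold change of -1.91 ± 0.338 (SE). Its groups overlapped through A10 and A47, the 2 low plane libraries of low score. ENSBTAG00000021181 was at 3.78 to 11.8 CPM in high plane libraries (median 6.71) and at 0.291 to 3.46 CPM in low plane libraries (median 2.02), with a log2 fold change of -1.68 ± 0.305 (SE). Its groups did not overlap. ENSBTAG00000023814 was at 5.76 to 18.3 CPM in high plane libraries (median 8.14) and at 1.396 to 8.70 CPM in low plane libraries (median 2.79), with a log2 fold change of -1.56 ± 0.330 (SE). The low plane library A47 lay above 5 of the 9 high plane libraries for this gene.

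The remaining pair had smaller differences. ENSBTAG00000016619, the sparsest in reads here with 5 to 24 reads per library, was at 0.836 to 1.73 CPM in high plane libraries (median 1.16) and at 0.237 to 0.983 CPM in low plane libraries (median 0.529), with a log2 fold change of -1.18 ± 0.263 (SE). ENSBTAG00000009983 was at 9.62 to 20.8 CPM in high plane libraries (median 11.8) and at 4.34 to 10.5 CPM in low plane libraries (median 5.43), with a log2 fold change of -1.05 ± 0.213 (SE). Both overlapped between diets through libraries of low score, A47 in the first gene and A10 and A47 in the second. In whole tissue, fewer cells of a type and less RNA per cell cannot be told apart. All 6 genes were among the 71 of 14411 genes lower on the low plane at an FDR under 0.05 (0.493%), and 1 of the 6 did not overlap between diets, as did 0.16% of all genes. Both counts describe the choice of the genes and carry no further weight.

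All 6 genes were also lower in the anterior pituitary when the libraries of low score were left out. Without them (6 high plane and 8 low plane libraries) the log2 fold changes were -1.79, -1.53, -1.14, -1.39, -1.71 and -0.99, in the order in which the 6 genes are listed at the start. The last, ENSBTAG00000009983, then fell outside the limit of -1. Of the 6 genes, 5 then had every low plane library below every high plane library, against 1.08% of all genes. The exception was ENSBTAG00000039462, again through A27. These libraries are part of those used in the choice, so this count too describes the choice and carries no further weight. The separation was widest in ENSBTAG00000012443, at 1.80 to 2.98 CPM on the high plane and 0.630 to 0.865 CPM on the low plane. ENSBTAG00000009983 lay at 9.62 to 13.1 CPM and 4.34 to 9.005 CPM.

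**Figure D1:**
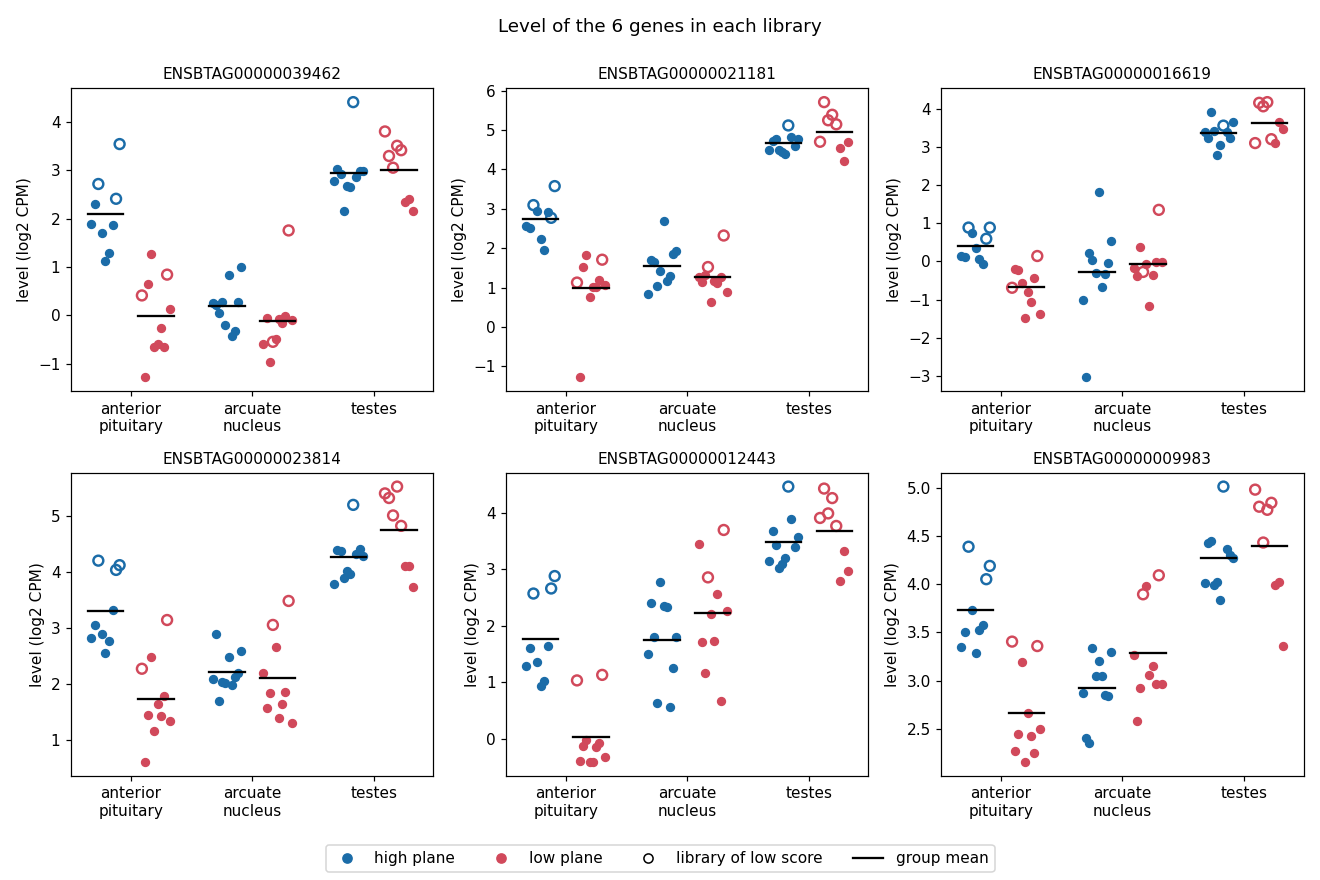
Level of each of the 6 genes in every library (vertical axis, log2 CPM with a prior count of 2), by tissue and plane of nutrition. Open circles are the libraries of low score and black lines are group means. In the anterior pituitary the low plane means lie below those of the high plane, with no overlap of libraries in ENSBTAG00000021181 and some overlap in the other 5 genes, and open circles lie mostly at the top of their groups. The lowest point of ENSBTAG00000016619 in the arcuate nucleus is C22, which had no read of it.

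In the arcuate nucleus the 6 genes split evenly, with 3 lower and 3 higher on the low plane, and 50.9% of 14757 genes were lower. ENSBTAG00000039462 was at 0.620 to 1.88 CPM in high plane libraries (median 1.05, n = 10) and at 0.393 to 3.25 CPM in low plane libraries (median 0.797, n = 10), with a log2 fold change of -0.27 ± 0.327 (SE). ENSBTAG00000021181 was at 1.65 to 6.39 CPM in high plane libraries (median 2.78) and at 1.43 to 4.88 CPM in low plane libraries (median 2.20), with a log2 fold change of -0.36 ± 0.250 (SE). ENSBTAG00000016619 was at 0 to 3.45 CPM in high plane libraries (median 0.772) and at 0.326 to 2.44 CPM in low plane libraries (median 0.797), with a log2 fold change of -0.28 ± 0.396 (SE). The top low plane value of all 3 genes was that of C6, a library of low score, and the groups overlapped throughout. The 0 of ENSBTAG00000016619 belongs to C22, the shallowest library. Its 3.45 CPM belongs to the high plane library C44, and its direction rests on that library. Without C44 its log2 fold change was 0.20.

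The other 3 genes were higher on the low plane by log2 fold change. In ENSBTAG00000023814 that difference was far under its SE, and the median was lower on the low plane. Without C6 its log2 fold change was -0.14. ENSBTAG00000023814 was at 3.09 to 7.26 CPM in high plane libraries (median 4.17) and at 2.33 to 11.1 CPM in low plane libraries (median 3.47), with a log2 fold change of 0.06 ± 0.272 (SE). ENSBTAG00000012443 was at 1.35 to 6.73 CPM in high plane libraries (median 3.37) and at 1.47 to 12.9 CPM in low plane libraries (median 4.59), with a log2 fold change of 0.63 ± 0.373 (SE). ENSBTAG00000009983 was at 4.99 to 10.0 CPM in high plane libraries (median 7.66) and at 5.88 to 16.9 CPM in low plane libraries (median 8.47), with a log2 fold change of 0.39 ± 0.202 (SE). Every low plane library of the last 2 genes lay above the lowest high plane library, and C6 was again the highest. All arcuate nucleus differences were under 2 SE.

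The label "little changed" in the arcuate nucleus depends in part on C6 and C33. Without them, 4 of the 6 genes were lower on the low plane, at log2 fold changes of -0.58 ± 0.241 (SE) for ENSBTAG00000039462, -0.56 ± 0.228 for ENSBTAG00000021181, -0.52 ± 0.390 for ENSBTAG00000016619 and -0.34 ± 0.194 for ENSBTAG00000023814. ENSBTAG00000012443 and ENSBTAG00000009983 kept their sign, at 0.34 ± 0.360 and 0.18 ± 0.171. The median of the 6 moved from -0.10 to -0.43, while the median over all genes was -0.01 with these libraries and 0.00463 without them.

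At the border of the choice, ENSBTAG00000009983 lay just inside a log2 fold change of -1 in the anterior pituitary. ENSBTAG00000014252 (-1.02) and ENSBTAG00000011578 (-1.03), also just inside, had arcuate nucleus values of 0.32 and 0.35, close to the 0.39 of ENSBTAG00000009983. Just outside lay ENSBTAG00000004256 (-0.90 in the anterior pituitary and 0.02 in the arcuate nucleus) and ENSBTAG00000013009 (-0.88 and -0.27). In all, 65 genes had an FDR under 0.05 and a log2 fold change below -1 in the anterior pituitary, the 6 and 59 others. Of the 51 among them that were also tested in the arcuate nucleus, ENSBTAG00000012443 had the highest arcuate nucleus value (place 51 from the lowest), with ENSBTAG00000009983 at place 48 and ENSBTAG00000023814 at place 37. ENSBTAG00000021181, ENSBTAG00000016619 and ENSBTAG00000039462 held places 18, 21 and 22, inside the range of the others. The 6 genes thus do not form the top end of that list, and other lowered genes leaned as weakly.

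**Figure D2:**
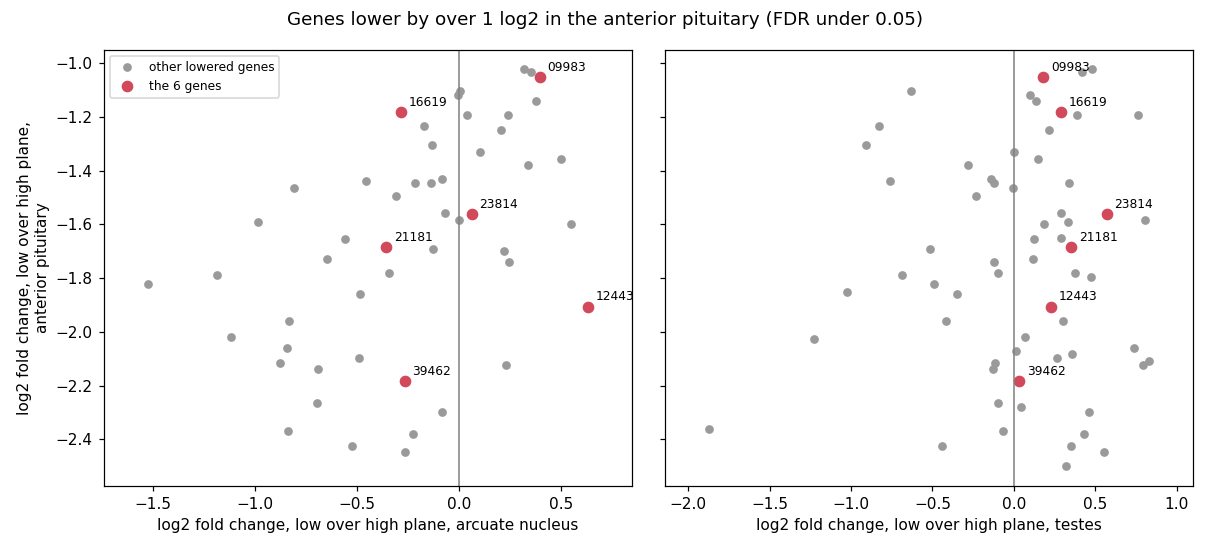
Log2 fold change, low over high plane, in the anterior pituitary (vertical axis) against that in the arcuate nucleus (left) and testes (right), for the genes lower by over 1 log2 in the anterior pituitary at an FDR under 0.05. Red points are the 6 genes, marked by their last 5 digits, and grey points are the others that were tested in the second tissue. On the horizontal axes the 6 lie between -0.36 and 0.63 (left) and between 0.03 and 0.57 (right).

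The testes gave the diet comparison that the choice had not used. No member passed the test there (0 of 6 at an FDR under 0.05, edgeR quasi-likelihood test, against 6.9% of 15310 genes), and 1 of 6 had an unadjusted p under 0.05, against 30.2% of all genes. All 6 had a higher mean on the low plane, as did 49.3% of all genes at any size of difference. ENSBTAG00000023814 was at 13.6 to 36.8 CPM in high plane libraries (median 19.7, n = 10) and at 13.2 to 46.2 CPM in low plane libraries (median 30.3, n = 8). Its log2 fold change was 0.57 ± 0.250 (SE), with an unadjusted p of 0.0344 and an FDR of 0.140 (edgeR). The low plane libraries fell into 3 between 13.2 and 17.2 CPM and 5 between 28.3 and 46.2 CPM, and those 5 are the libraries of low score.

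The same division ran through the other genes. ENSBTAG00000021181 was at 20.7 to 34.6 CPM in high plane libraries (median 25.4) and at 18.5 to 52.2 CPM in low plane libraries (median 30.6), with a log2 fold change of 0.35 ± 0.179 (SE; edgeR FDR 0.182). ENSBTAG00000016619 was at 6.85 to 15.1 CPM in high plane libraries (median 10.4) and at 8.52 to 18.1 CPM in low plane libraries (median 11.8), with a log2 fold change of 0.29 ± 0.193 (SE; edgeR FDR 0.275). Here 2 of the 5 low plane libraries of low score did not lie above the others: B15 was the lowest of its group and B26 the third lowest. ENSBTAG00000012443 was at 8.03 to 21.99 CPM in high plane libraries (median 10.5) and at 6.78 to 21.5 CPM in low plane libraries (median 14.2), with a log2 fold change of 0.23 ± 0.245 (SE; edgeR FDR 0.478). ENSBTAG00000009983 was at 14.2 to 32.1 CPM in high plane libraries (median 19.4) and at 10.1 to 31.4 CPM in low plane libraries (median 24.3), with a log2 fold change of 0.18 ± 0.209 (SE; edgeR FDR 0.508). Both overlapped over nearly their whole range.

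ENSBTAG00000039462, with the largest anterior pituitary difference, had the smallest in the testes. It was at 4.32 to 21.1 CPM in high plane libraries (median 7.30) and at 4.34 to 13.8 CPM in low plane libraries (median 8.92), with a log2 fold change of 0.03 ± 0.292 (SE; edgeR FDR 0.933), and an interval of 2 SE from -0.55 to 0.62. A miss of the threshold is no evidence of equal levels, and the interval of ENSBTAG00000023814 reached from 0.07 to 1.07. Exact permutation tests of log2 CPM over all 43758 relabellings of the 18 libraries gave two-sided p-values of 0.0783 (ENSBTAG00000023814) to 0.847 (ENSBTAG00000039462), none under 0.05.

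The direction in the testes depended on how the libraries of low score, and depth, were treated. With the log2 total count as a covariate, 3 of the 6 genes were lower on the low plane, ENSBTAG00000039462 at -0.34, ENSBTAG00000009983 at -0.19 and ENSBTAG00000012443 at -0.06, and the genes called over the whole table fell from 1057 to 2 (edgeR). Low score and low depth go together in the testes, and their parts were not told apart. With the library score as a covariate, 4 of the 6 genes were lower on the low plane, and ENSBTAG00000039462 passed the test at a log2 fold change of -0.60 ± 0.139 (SE; edgeR FDR 0.0209), when 6.21% of all genes passed. ENSBTAG00000012443 (-0.33), ENSBTAG00000009983 (-0.31) and ENSBTAG00000023814 (-0.08) turned as well without passing. ENSBTAG00000021181 stood at 0.00 and ENSBTAG00000016619 at 0.13. Without the libraries of low score, which leaves 9 high plane and 3 low plane libraries, 5 of 6 were lower and 0 of 6 passed, but no gene at all passed in that comparison (0 of 15935 by edgeR, 2546 at an unadjusted p under 0.05). ENSBTAG00000039462 then averaged 6.84 ± 1.16 CPM (SD, n = 9) in high plane and 4.82 ± 0.427 CPM (SD, n = 3) in low plane libraries, with a log2 fold change of -0.51 ± 0.182 (SE; edgeR FDR 0.198). Limma voom with quality weights went the other way and called 5 of 6 genes higher on the low plane, along with 72.8% of all genes.

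**Figure D3:**
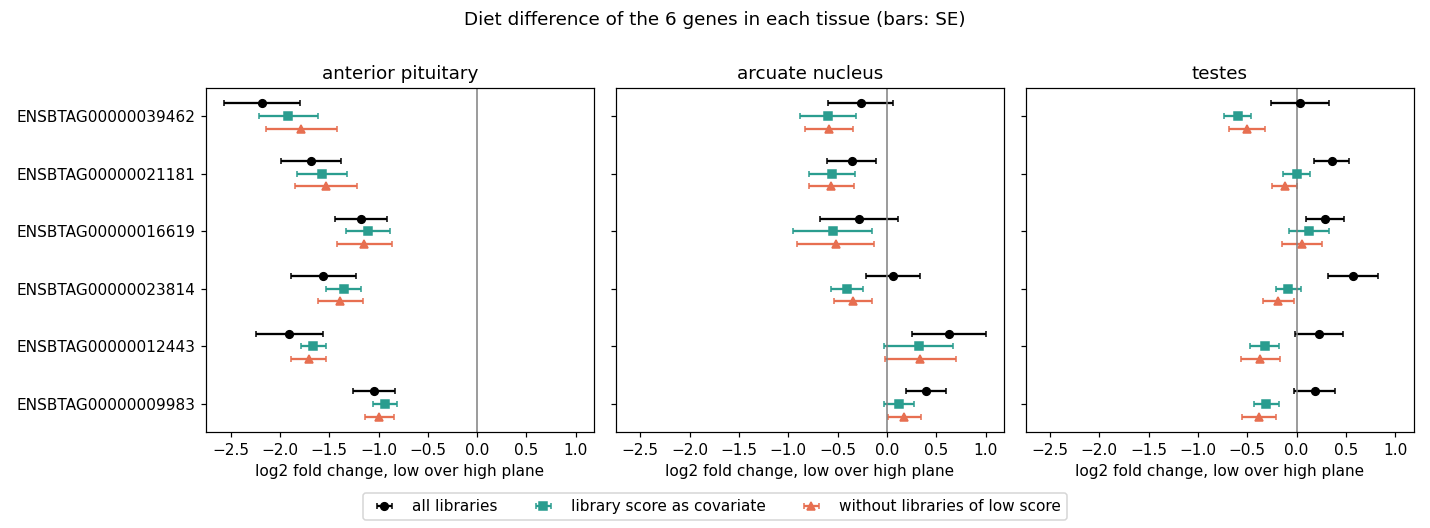
Log2 fold change of the low over the high plane (horizontal axis) for the 6 genes in each tissue, with bars of 1 SE. Circles use all libraries, squares add the library score as a covariate, and triangles leave out the libraries of low score. All anterior pituitary values stay at or below -0.93, while in the testes ENSBTAG00000039462 moves from 0.03 to -0.60 with the score.

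Within groups, all 6 genes had a higher mean in the libraries of low score than in the others, in each of the 5 groups that hold both kinds, as did 42.8% of the 13467 genes tested in all 3 tissues. The ratio of means ran from 1.51 to 2.68 in the high plane anterior pituitary (3 against 6 libraries), from 1.30 to 2.74 in the low plane anterior pituitary (2 against 8) and from 1.79 to 2.73 in the low plane arcuate nucleus (2 against 8). In the testes it ran from 1.14 to 3.08 on the high plane (1 against 9) and from 1.31 to 2.39 on the low plane (5 against 3). The smallest ratio was that of ENSBTAG00000016619 in both testes groups. In the low plane testes, every library of low score lay above every other library for 5 of the 6 genes, with ENSBTAG00000016619 the exception, and for 31.8% of all genes. This held for 5 of 6 in the high plane testes (39.9% of all genes) and 4 of 6 in the high plane anterior pituitary (33.8%). It held for only 2 of 6 in the low plane anterior pituitary (36.6%) and 2 of 6 in the low plane arcuate nucleus (30.6%). The libraries of low score were set apart by the data, not by the labels, and the part of whatever distinguishes them in the levels of these genes was not tested.

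Across tissues, all 6 genes had their highest level in the testes. The comparison with the arcuate nucleus was tested, in 1 fit of all 57 libraries with both diets weighted equally, and each gene was higher in the testes (6 of 6 at an FDR under 0.05 by edgeR, against 41% of 16476 genes). That fit treats libraries of the same calf as independent, since the labels do not pair them. ENSBTAG00000016619 had the largest difference, 11.1-fold (log2 difference 3.48 ± 0.228, SE), followed by ENSBTAG00000021181 at 10.1-fold (3.34 ± 0.193) and ENSBTAG00000039462 at 7.93-fold (2.99 ± 0.261). ENSBTAG00000023814 was 4.99-fold higher (2.32 ± 0.221), ENSBTAG00000012443 2.67-fold (1.42 ± 0.243) and ENSBTAG00000009983 2.23-fold (1.16 ± 0.157). The log2 differences ran from 1.19 to 3.13 with the high plane alone and from 1.03 to 3.74 with the low plane alone. Without the libraries of low score every log2 difference was smaller. They were then 2.53, 3.06, 3.37, 1.95, 1.05 and 0.78, in the order of the opening list.

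Levels of the anterior pituitary against the other tissues depend on the diet, as the choice of the genes implies, and are given as values for each diet. On the high plane the testes exceeded the anterior pituitary by log2 differences of 0.46, 1.54, 2.73, 0.52, 1.28 and 0.17, in the order of the opening list. On the low plane the same differences were 2.78, 3.68, 4.29, 2.77, 3.53 and 1.505. The testes were thus the higher tissue on either diet, by little in ENSBTAG00000009983 on the high plane. Against the arcuate nucleus, the anterior pituitary lay higher for all 6 genes on the high plane, by log2 differences of 2.33, 1.38, 0.40, 1.49, 0.29 and 1.02. On the low plane these were 0.34, 0.01, -0.55, -0.21, -2.32 and -0.47, so that 4 of the 6 stood below it. The order of the lower 2 tissues was therefore not the same on both diets. By mean CPM, which was scaled within each tissue, the low plane anterior pituitary was the lowest group for every gene but ENSBTAG00000039462. That includes ENSBTAG00000021181, which the fit of all tissues put at 0.01 against the arcuate nucleus. For ENSBTAG00000012443 the mean was 0.982 CPM, against 5.57 CPM in the low plane arcuate nucleus and 13.6 CPM in the low plane testes.

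The genes were also compared for variation among calves of 1 diet, with each diet mean subtracted from log2 CPM. Libraries of low score and the others form separate clusters, so correlations are given within the 44 other libraries, over 45 pairs of genes and tissues. In the anterior pituitary (14 libraries) 6 of 15 pairs passed at an adjusted p under 0.05 (permutation test of Pearson's r, 100000 resamples). These libraries are part of those used in the choice, and the FDR that all 6 genes pass there depends on the spread within diets. The pairs that passed in this tissue therefore describe the chosen genes and carry no further weight. The closest pair was ENSBTAG00000021181 with ENSBTAG00000023814 (r = 0.81, rho = 0.74, permutation p = 0.00129 and 0.00355, adjusted p = 0.0243 for r). ENSBTAG00000009983 with ENSBTAG00000023814 followed (r = 0.75, rho = 0.58, permutation p = 0.00497 and 0.0318, adjusted p = 0.0373 for r), and ENSBTAG00000039462 with ENSBTAG00000021181 (r = 0.75, rho = 0.67, permutation p = 0.00316 and 0.0103, adjusted p = 0.0306 for r). ENSBTAG00000016619 stood aside, with r between -0.14 and 0.17 against the other 5 genes. It had 5 to 24 reads per library there, and the part of counting noise in this was not tested. No pair passed by rho, and without the 2 libraries farthest from the median, A27 and A14 for ENSBTAG00000039462, the r of ENSBTAG00000039462 with ENSBTAG00000023814 fell from 0.74 to 0.24, so that relation rests on those libraries. The closest pair kept an r of 0.53, and 3 of the 6 pairs kept an r over 0.5.

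In the testes (12 libraries) 3 of 15 pairs passed, all among ENSBTAG00000039462, ENSBTAG00000023814 and ENSBTAG00000009983. The r of ENSBTAG00000023814 with ENSBTAG00000009983 was 0.89 (rho = 0.75, permutation p = 0.00053 and 0.00701, adjusted p = 0.0239 for r) and 0.95 without the 2 farthest libraries. ENSBTAG00000039462 had an r of 0.75 with ENSBTAG00000023814 (rho = 0.85, permutation p = 0.00162 and 0.00096, adjusted p = 0.0243 for r) and of 0.67 with ENSBTAG00000009983 (rho = 0.77, permutation p = 0.00909 and 0.0049, adjusted p = 0.0455 for r). These were 0.80 and 0.81 without the 2 farthest libraries. By rho, 1 of the 3 passed after adjustment, ENSBTAG00000039462 with ENSBTAG00000023814. In the arcuate nucleus (18 libraries) 0 of 15 pairs passed, with r from -0.14 to 0.46. A count of pairs that passed in 1 tissue and not in another is no test of a difference between tissues. The lowest arcuate nucleus counts, 1 read of ENSBTAG00000039462 and 0 of ENSBTAG00000016619, were those of C22, the shallowest library. Counts were low in the anterior pituitary too, at 5 to 24 reads of ENSBTAG00000016619.

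**Figure D4:**
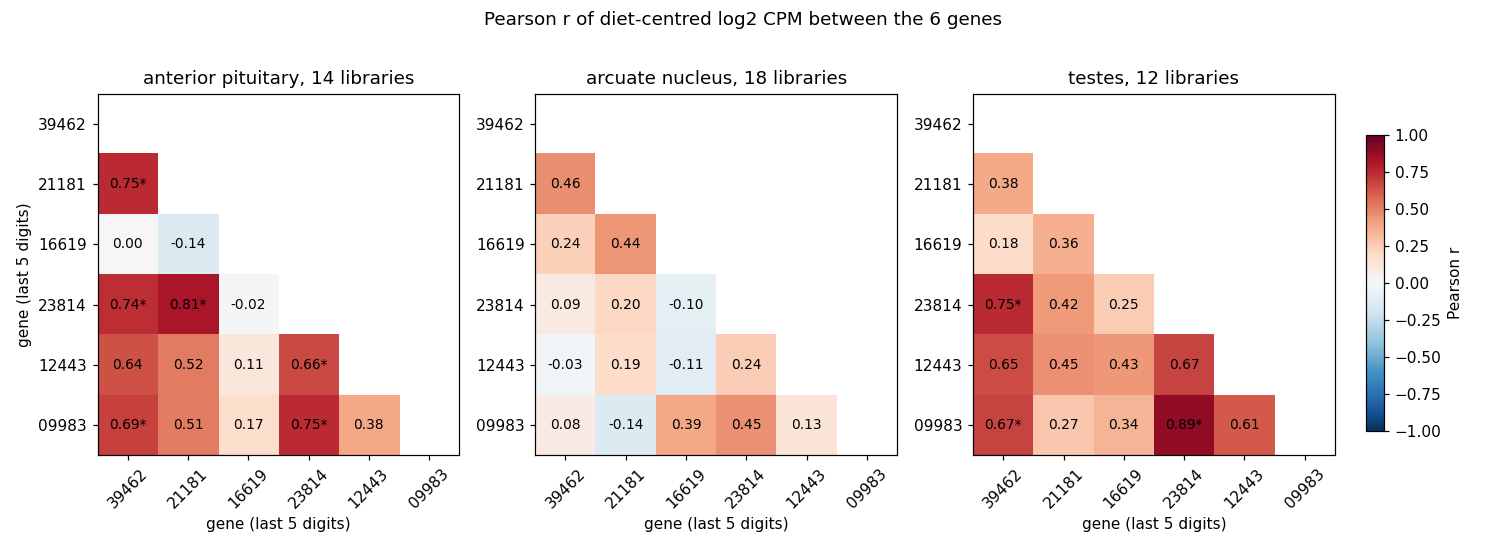
Pearson's r between the 6 genes (rows and columns, named by their last 5 digits) of diet-centred log2 CPM, in the libraries that are not of low score. Colour runs from -1 (blue) to 1 (red) and stars mark an adjusted permutation p under 0.05. Stars fall on 6 anterior pituitary pairs, on no arcuate nucleus pair and on 3 testes pairs, and ENSBTAG00000016619 has none.

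The genes most alike in the anterior pituitary were mostly not other members. By r of diet-centred log2 CPM over the 19 libraries, which mixes both kinds of library, the first 2 for ENSBTAG00000039462 were ENSBTAG00000002331 (0.91) and ENSBTAG00000008216 (0.90), themselves lower on the low plane by 2.43 on the log2 scale. ENSBTAG00000021181 was followed by ENSBTAG00000001343 (0.85) and ENSBTAG00000021686 (0.85), with log2 fold changes of -2.50 and -1.65. These 4 kept an r of 0.87 to 0.88 over the 14 libraries that are not of low score. The first 2 for each of the other 4 genes had no diet difference past an FDR of 0.05 in this ranking. They were ENSBTAG00000047441 (0.88) and ENSBTAG00000017950 (0.77) for ENSBTAG00000016619, and ENSBTAG00000025001 (0.95) and ENSBTAG00000002826 (0.95) for ENSBTAG00000023814. For ENSBTAG00000012443 they were ENSBTAG00000008490 and ENSBTAG00000016191 (both 0.98), and for ENSBTAG00000009983 ENSBTAG00000047362 (0.94) and ENSBTAG00000010593 (0.93). Over the 14 libraries the last pair fell to 0.80 and 0.74. A miss of the FDR is not a lack of difference, as ENSBTAG00000002826 had a log2 fold change of -1.01. Ranked over those 14 libraries, the first for ENSBTAG00000023814 was ENSBTAG00000001343 (0.95), and the second for ENSBTAG00000009983 was ENSBTAG00000020100 (0.92), which had log2 fold changes of -2.50 and -2.37 and an FDR under 0.05. The first for ENSBTAG00000009983, ENSBTAG00000021582 (0.92), had a log2 fold change of -1.19 and did not pass.

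Over the same 14 libraries, the 50 genes most alike held 28 of the 65 lowered genes for ENSBTAG00000009983, 23 for ENSBTAG00000039462, 14 for ENSBTAG00000023814 and 9 for ENSBTAG00000021181. They held none for ENSBTAG00000012443 and ENSBTAG00000016619. The 65 lowered genes are among 14411 genes tested in the anterior pituitary, and were called from libraries that include these 14. The counts were not tested. The nearest other member ranked 16 of 14410 genes for ENSBTAG00000021181, 25 for ENSBTAG00000023814, 50 for ENSBTAG00000009983 and 51 for ENSBTAG00000039462. It ranked 162 for ENSBTAG00000012443 and 4930 for ENSBTAG00000016619. Within either ranking the first 2 genes were not shared between members. Across the rankings, ENSBTAG00000001343 came first for both ENSBTAG00000021181 (19 libraries) and ENSBTAG00000023814 (14 libraries). Overlap between the lists of 50 was not counted, and no difference between the 6 was tested. ENSBTAG00000016619 had 5 to 24 reads per library here, and the part of counting noise in its ranks was not tested.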

How the data were processed

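Total RNA was sequenced as single-end TruSeq mRNA libraries. The authors deposited, per library, whole-number counts of reads per Ensembl gene, without normalization. The submitters' processing notes name CASAVA 1.4, STAR, HTSeq and edgeR, without their roles. Genome build, annotation and strand setting are not given in the sources used here. Another 3 libraries, which the authors removed for low read number, were not analysed here. The labels' diet and tissue gave the groups. By the study's methods, libraries of 1 tissue come from separate calves and the 3 tissues from the same calves, which the labels do not pair. No 2 libraries of a group agreed within sampling noise (smallest chi-square per degree of freedom 2.72).

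The counts of each tissue were fitted with edgeR 4.0.16 (R 4.3.3): default filter on diet, TMM, quasi-likelihood test of low against high plane, and Benjamini-Hochberg adjustment over all genes tested (FDR, threshold 0.05). Standard errors are the log2 fold change over the root of the F statistic. Tissues were compared in 1 fit of 57 libraries with 6 groups, treated as independent. Log2 CPM used a prior count of 2. Depth, 898979 to 32009433 reads, sets the precision of low counts. Permutation tests used Python 3.11.15 and scipy 1.17.1. The fits were tested on simulated data of less spread than these counts and without libraries of low score. That test checks the code and not the accuracy of the fits on these data.

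The 6 genes, the library score and the alternatives were chosen with earlier results of these data known. Alternatives were other filters, library totals without TMM, DESeq2 1.42.0, edgeR's exact test, limma 3.58.1 with voom and quality weights, the log2 total count or library score as covariate, 1 fit over all tissues, 1 diet at a time, and leaving out each library. The score takes 200 genes with the largest slopes on the first scaling dimension, within diets, in the other 2 tissues. Leaving out libraries with a score below 3, and low or high score as covariate, were added after seeing the data. Genes named are the 6, the 2 on each side of a log2 fold change of -1 in the anterior pituitary, and the 2 most alike each of the 6 there. Planned gene lists, cell type markers and promoter motifs need gene names: 0 of 24616 identifiers matched the RefSeq table, so they were not run.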

Additional observations from a re-analysis of the deposited data

Results flagged for a closer look

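In 36 groups (6 genes, 3 tissues, 2 diets), 6 single libraries lay far from the rest of their group by Dixon's test on log2 CPM, where chance gives about 1.8. Of these, 5 are libraries of low score. B42 was highest among the high plane testes for ENSBTAG00000039462 at 21.1 CPM (next highest 8.03), ENSBTAG00000023814 at 36.8 CPM (21.1) and ENSBTAG00000009983 at 32.1 CPM (21.6). C6 was highest among the low plane arcuate nucleus libraries for ENSBTAG00000039462 at 3.25 CPM (0.869), on 20 reads, and for ENSBTAG00000021181 at 4.88 CPM (2.75), on 30 reads. The remaining one was A14, not of low score, which was lowest among the low plane anterior pituitary libraries for ENSBTAG00000021181 at 0.291 CPM (next lowest 1.58), on 5 reads.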

How the results depend on the processing

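No anterior pituitary log2 fold change of the 6 genes changed sign in 114 leave-one-out fits or 62 fits under other settings. In the arcuate nucleus, signs changed in 3 of 120 and 7 of 64 fits, and in the testes in 6 of 108 and 18 of 66. With the library score as covariate, ENSBTAG00000039462 turned to -0.60 in the testes (edgeR FDR 0.0209) and the number of members called there rose from 0 to 1. Limma voom with quality weights called 5. Leaving out 1 library gave 0 to 1 members called: ENSBTAG00000023814 passed without B42 (FDR 0.0329, with 30.1% of all genes) and without B7 (FDR 0.0494, with 16.6%). The other settings called 0, the exact permutation test included. Tissue fits that include the anterior pituitary or the arcuate nucleus hold values used in the choice, and their calls support nothing. Testes over arcuate nucleus gave 6 members higher in the testes, where 41% of 16476 genes were called higher. Testes over anterior pituitary gave 6, and 3 with the high plane alone. Anterior pituitary against arcuate nucleus gave 5, and 1 with the low plane alone. Pairs that varied together numbered 30 of 45 over all libraries, 7 with the library score removed and 9 without the libraries of low score. The cause was not tested. Over all genes, calls ran from 50 to 1298 in the anterior pituitary (81 in the reported fit), 0 to 123 in the arcuate nucleus (0, with 1464 at an unadjusted p under 0.05; DESeq2 and the exact test called 1 each) and 0 to 11146 in the testes (1057) across settings other than leave-one-out. Leaving out 1 library gave 48 to 88, 0 and 158 to 4600. Without TMM, the median log2 difference of all genes moved from -0.00655 to 0.32 for testes over anterior pituitary and from 0.07 to -0.19 for anterior pituitary over arcuate nucleus. All 6 genes were higher in the testes than in the arcuate nucleus in either case, by 1.24 to 3.57 on the log2 scale without TMM. The filter of CPM above 1 in every library kept 2 members in the anterior pituitary and 4 in the arcuate nucleus, so no count is given for it. Depth limits ENSBTAG00000016619 most, with 5 to 24 reads in the anterior pituitary. No paired analysis was possible because the labels give no replicate number shared between groups.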
